A study of Danio rerio with 6 samples.

Results

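Transcripts that encode actin, tubulin and the proteins that build and turn over their filaments were followed in RNA precipitated with Tdrd6a from zebrafish (Danio rerio) zygotes. Members were all genes whose symbol in the deposited table matched a fixed set of actin and tubulin name stems and whose mean over the 6 libraries was at least 10 normalized counts. Of 21051 genes in the table, 77 had a matching symbol and 65 of them reached the minimum, 50 on the actin side and 15 on the tubulin side. The remaining 12, of which 5 were actin and 7 tubulin genes, had means from 0 to 6.85. The members nearest the minimum were actr3b (mean 10.7) and fmn1 (10.8) inside it and stmn2a (6.85) and stmn1b (5.43) outside it.

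RNA from the Tdrd6a immunoprecipitate (IP; 3 libraries) was compared with input RNA (3 libraries). The labels describe zygotes for both groups and give no genotype, strain, treatment, age or clutch, so the spread behind each p-value is that among these libraries and may be technical. A mock precipitate was not analysed here, and IP was set against input alone. Normalized counts are relative within each library of zygote RNA, so the loss of a transcript cannot be told from a gain of the others.

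Depth was 4031863 to 22466764 reads in IP and 10481206 to 19804774 reads in input, with IP replicate 2 the shallowest. The egg was visible in the data: buc, the germ plasm organiser, had 4915 to 8708 normalized counts in IP and 7980 to 9946 in input. The egg coat gene zp3b had 602 to 847 in IP and 344 to 642 in input, while the egg gene zar1 was low, with 18.1 to 117 in IP and 6.1 to 101 in input. Of the markers of follicle, muscle, blood and skin cells, 20 were in the table by name. Their summed level was 48.1 to 86.8 normalized counts in IP and 68.9 to 89.7 in input, and tnnt2a, lhcgr and cyp19a1a were listed at 0 in all 6 libraries. The follicle marker gsdf, however, had 13.2 to 26.3 in IP and 8.8 to 38.1 in input. The muscle marker tnnt3a had 11.8 to 26.5 in IP and 10.1 to 31.6 in input.

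Actin filaments are started by the branched nucleator Arp2/3, which WASP and WAVE proteins switch on, or by formins, which build unbranched filaments. Profilin feeds actin monomers to growing ends, capping protein closes those ends, and cofilin cuts old filaments. Microtubules are polymers of alpha and beta tubulin dimers, which the tubulin cofactors fold and join and which stathmins hold back from polymerising. In the early zebrafish embryo both filament systems take part in moving and gathering the germ plasm, the maternal material that Tdrd6a belongs to.

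The cytoskeleton transcripts did not move as a block. Of the 65 members, 4 were higher in IP, 0 were lower and 61 were not called at an adjusted p under 0.05 (limma), a share of 6.15%. Over all 13265 genes tested the share called was 6.32%, with 4.46% higher and 1.86% lower, so the members were called about as often as any gene. With libraries scaled by their size only, 474 genes were higher and 383 lower, against 591 higher and 247 lower in the fit reported, and the median of all genes shifted from -0.01 to -0.18 on the log2 scale. With replicate number as a block, 925 genes were higher and 467 lower. Among the members, cfl1l and tbca were also lower with the block and with limma voom, and cfl1l, tbca and tbcb with DESeq2, while edgeR without the block called 0 lower. The members higher in IP were cyfip1 and fmn2b on the actin side and tuba4l and tuba1b on the tubulin side. At an unadjusted p under 0.05 there were 8 higher and 8 lower members, against 21.2% of all genes in either direction. All 3 IP libraries lay above all 3 input libraries for 10 members and below them for 10, against 14.6% and 12.9% of all genes.

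The actin and tubulin sides differed in their medians. The median log2 fold change, IP over input, was -0.07 over the 50 actin genes, with 23 estimates above 0 and 27 below. It was 0.51 over the 15 tubulin genes, with 9 above 0 and 6 below, against -0.01 over all genes tested. The tubulin median depended on single libraries, at -0.03 without IP replicate 1, 0.15 without input replicate 2 and 0.07 without input replicate 3. The actin median was 0.05 without input replicate 2 and 0.01 without input replicate 3. No test of the difference between these gene sets was made, since genes are not replicates.

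**Figure D1:**
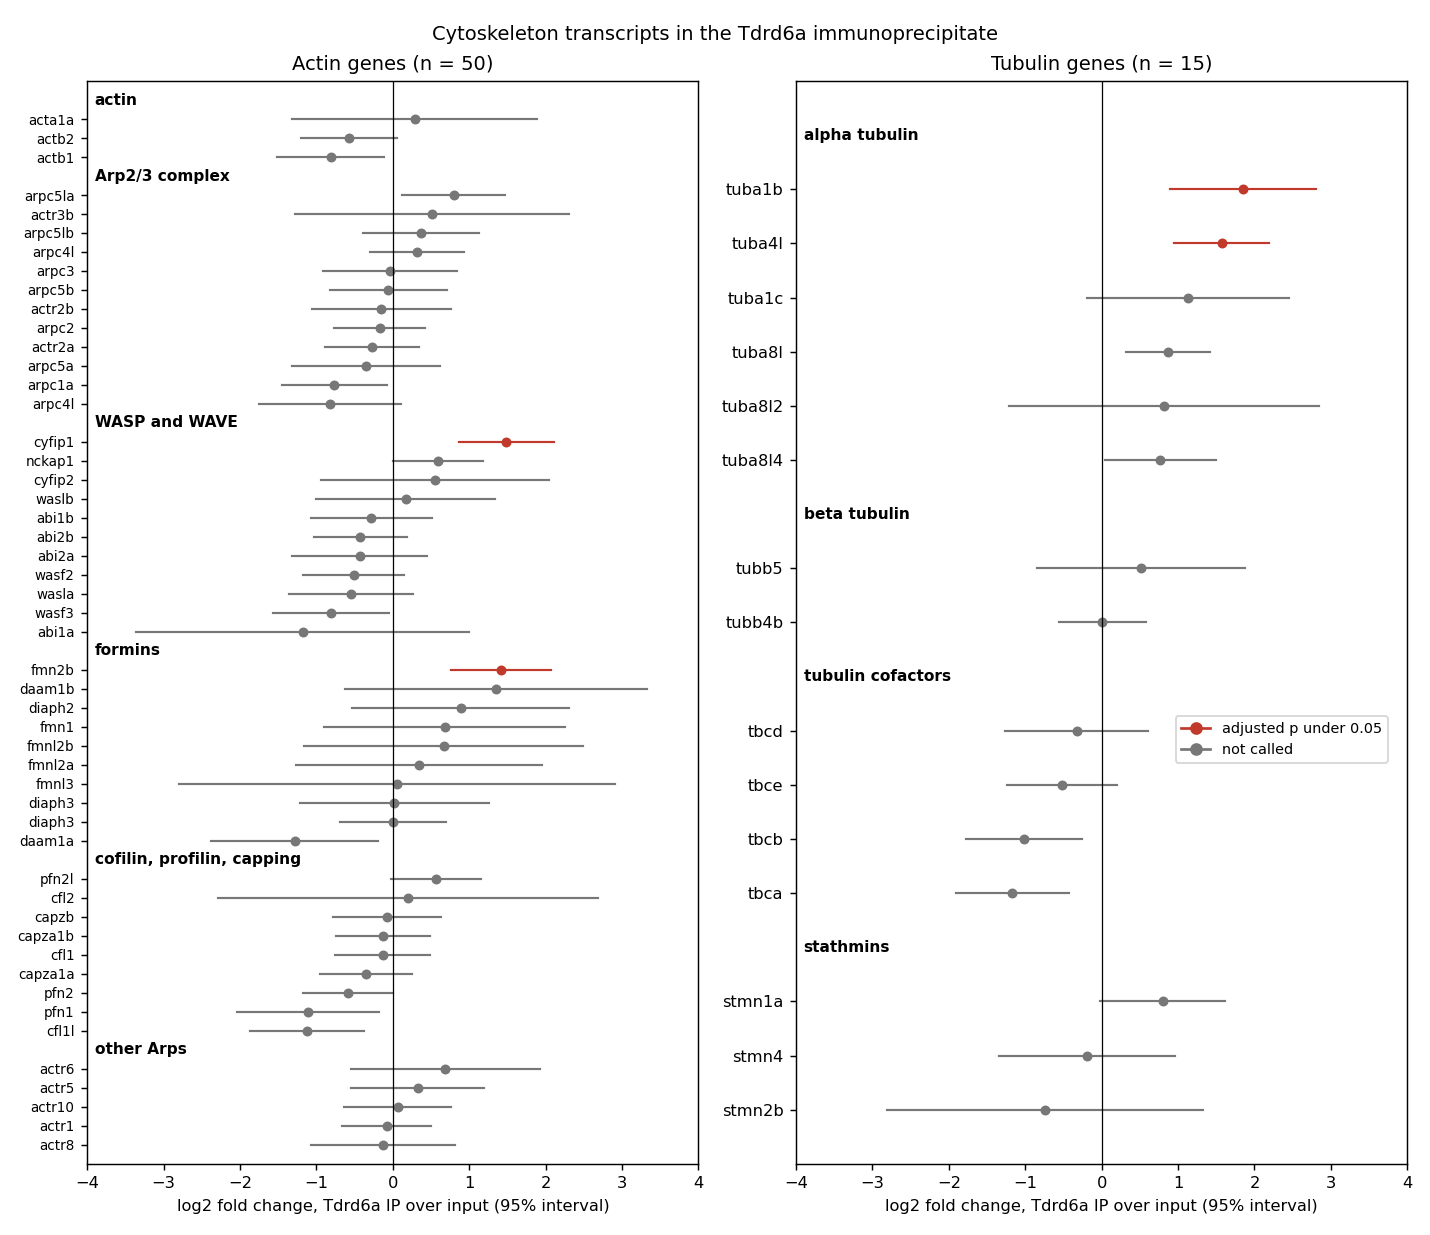
Log2 fold change of normalized counts, Tdrd6a IP over input, for the 50 actin and 15 tubulin genes, grouped by role. Points are estimates and bars are 95% intervals not adjusted for multiple tests. Red marks the 4 genes with an adjusted p under 0.05. All 6 alpha tubulin estimates lie above 0 and those of the 4 tubulin cofactor members below 0. The fifth cofactor, tbcc, at 0.17, was no member and is not shown.

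Alpha tubulin transcripts held the 2 highest estimates of all members. All 6 measured alpha tubulin genes had estimates above 0, against 6577 of all 13265 genes tested. They ran from 0.77 to 1.85, with a median of 0.997. Of the 6, 2 were higher in IP, against 4.46% of all genes, 0 lower and 4 not called. The direction held for all 6 under every scaling, test and left-out library tried, and for the 4 of them that reached a mean of 50. The estimate of tuba8l2, with 1 read in its lowest library, fell to as little as 0.07 when a library was left out.

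The alpha tubulin gene tuba4l (ENSDARG00000074289) had 6123, 3865 and 3776 normalized counts in IP replicates 1, 2 and 3, against 1653, 1610 and 1268 in input replicates 1, 2 and 3. Every IP library stood above every input library, with IP replicate 1 the highest. The mean was 4588 ± 1330 in IP and 1510 ± 211 in input (SD, n = 3 each), a log2 fold change of 1.57 ± 0.28 (SE; 2.98-fold, adjusted p = 0.0101, limma). The call was lost when any 1 input library was left out, with adjusted p of 0.0538 to 0.0793, within a range of 1.471e-05 to 0.0793 over all 17 alternatives.

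The alpha tubulin gene tuba1b (ENSDARG00000045367) had 935, 380 and 728 normalized counts in IP replicates 1, 2 and 3, against 176, 107 and 277 in the input libraries in the same order. The groups did not overlap, and IP replicate 2 was the lowest IP library. The log2 fold change was 1.85 ± 0.43 (SE; 3.61-fold, adjusted p = 0.0297, limma). Of 17 alternatives 11 kept the call, and leaving out any library other than IP replicate 2 ended it, with adjusted p of 0.0532 to 0.134. It was also lost with no filter beyond 1 read (adjusted p = 0.0717), and over all alternatives adjusted p ran from 0.000967 to 0.134.

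Another alpha tubulin, tuba8l, had 2015, 2489 and 2681 normalized counts in IP and 1326, 1405 and 1192 in input. These groups did not overlap either, and the estimate was 0.86 ± 0.25 with an adjusted p of 0.0655. The transcript of tuba8l4 had 5123, 2801 and 3978 in IP and 2995, 1531 and 2508 in input. Each IP library lay above the input library of the same number, while the groups overlapped, at 0.77 ± 0.33 (adjusted p = 0.212). DESeq2 called tuba8l on all 6 libraries (0.85, adjusted p = 0.0215). Without IP replicate 2 both were called, tuba8l at 0.83 (adjusted p = 0.0381) and tuba8l4 at 0.999 (adjusted p = 0.0419), within ranges of 0.0215 to 0.245 and 0.0419 to 0.536 over the alternatives.

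The remaining alpha tubulin members were scarce. The transcript of tuba1c had 25, 37.6 and 25.3 normalized counts in IP, against 11.2, 9.6 and 12.3 in input, which rested on as few as 10 reads in a library. Its groups did not overlap, at 1.13 ± 0.60 (adjusted p = 0.316). The transcript of tuba8l2 ranged from 3.8 to 38.9 in IP and from 0.7 to 22.4 in input, with groups that overlapped. Alpha tubulin copies resemble each other closely, and how reads shared between them were counted is not given in the sources used here, so the split among copies is uncertain.

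Beta tubulin, the partner of alpha tubulin in every dimer, was not called by limma, edgeR, DESeq2 or limma voom, and 0 of 2 genes had an unadjusted p under 0.05. The transcript of tubb4b (ENSDARG00000002344) had 7205, 7572 and 5733 normalized counts in IP and 7206, 6209 and 6864 in input. The groups overlapped throughout, with a log2 fold change of 0.01 and a 95% interval of -0.56 to 0.58. The scarcer tubb5 had 591, 105 and 176 in IP and 237, 92.6 and 170 in input, where IP replicate 1 stood far above the other IP libraries (0.51 ± 0.61, adjusted p = 0.694). Over the members of each kind, alpha tubulin normalized counts divided by beta tubulin ones gave 1.83, 1.25 and 1.90 in IP replicates 1, 2 and 3, against 0.831, 0.742 and 0.747 in input. The ratio was thus higher in every IP library than in any input library, and it is free of the scaling between libraries. This ratio was chosen with earlier results of these data known and was not tested, and tubb4b held most of its beta counts. Transcript lengths were not used, so its absolute size does not say which kind was more abundant.

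Of the tubulin cofactors, the chaperones that fold and pair tubulin, the 4 members had estimates on the other side of 0. All 4 were below 0, with a median of -0.77, while the fifth cofactor, tbcc, which was no member, was at 0.17. Of the 4 members limma called 0, with 2 at an unadjusted p under 0.05. In the same 4, edgeR called 0 without the replicate block and 2 lower with it, limma voom 1 lower and DESeq2 2 lower. The direction below 0 held for these 4 under every alternative. The transcript of tbca, which handles beta tubulin, had 163, 252 and 161 normalized counts in IP, against 497, 324 and 485 in input. Its groups did not overlap, at -1.17 ± 0.34 with an adjusted p of 0.0644, or 0.0478 with replicate number as a block and 0.0159 without IP replicate 2, within a range of 0.0133 to 0.214 over the alternatives.

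The transcript of tbcb, which handles alpha tubulin, had 232, 252 and 163 normalized counts in IP and 531, 514 and 297 in input. The IP libraries again all lay below the input libraries, at -1.02 ± 0.35 (adjusted p = 0.112, limma). Of 17 alternatives 2 called tbcb lower, DESeq2 (adjusted p = 0.0400) and edgeR with the replicate block (adjusted p = 0.0465). The transcript of tbce, its partner in handling alpha tubulin, had 270, 331 and 239 in IP and 284, 502 and 445 in input, with overlapping groups (-0.52, adjusted p = 0.406). The last, tbcd, was at -0.33 (adjusted p = 0.723). The fifth cofactor, tbcc, carried no symbol in the deposited table and was found by its gene identifier after the data were seen; it was at 0.17 with an adjusted p of 0.818.

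Among stathmins, stmn1a had 1296, 1045 and 2415 normalized counts in IP and 1035, 562 and 1065 in input. IP replicate 3 was the highest, and the groups overlapped only narrowly (0.80 ± 0.37, adjusted p = 0.247). The scarce members stmn4 and stmn2b were at -0.19 and -0.74. Of the 3 stathmins 0 were called by any of the 4 tools and 0 had an unadjusted p under 0.05. For stmn2b the values were 30.6, 0 and 18.1 in IP and 22.4, 6.6 and 47.0 in input, which overlapped.

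**Figure D2:**
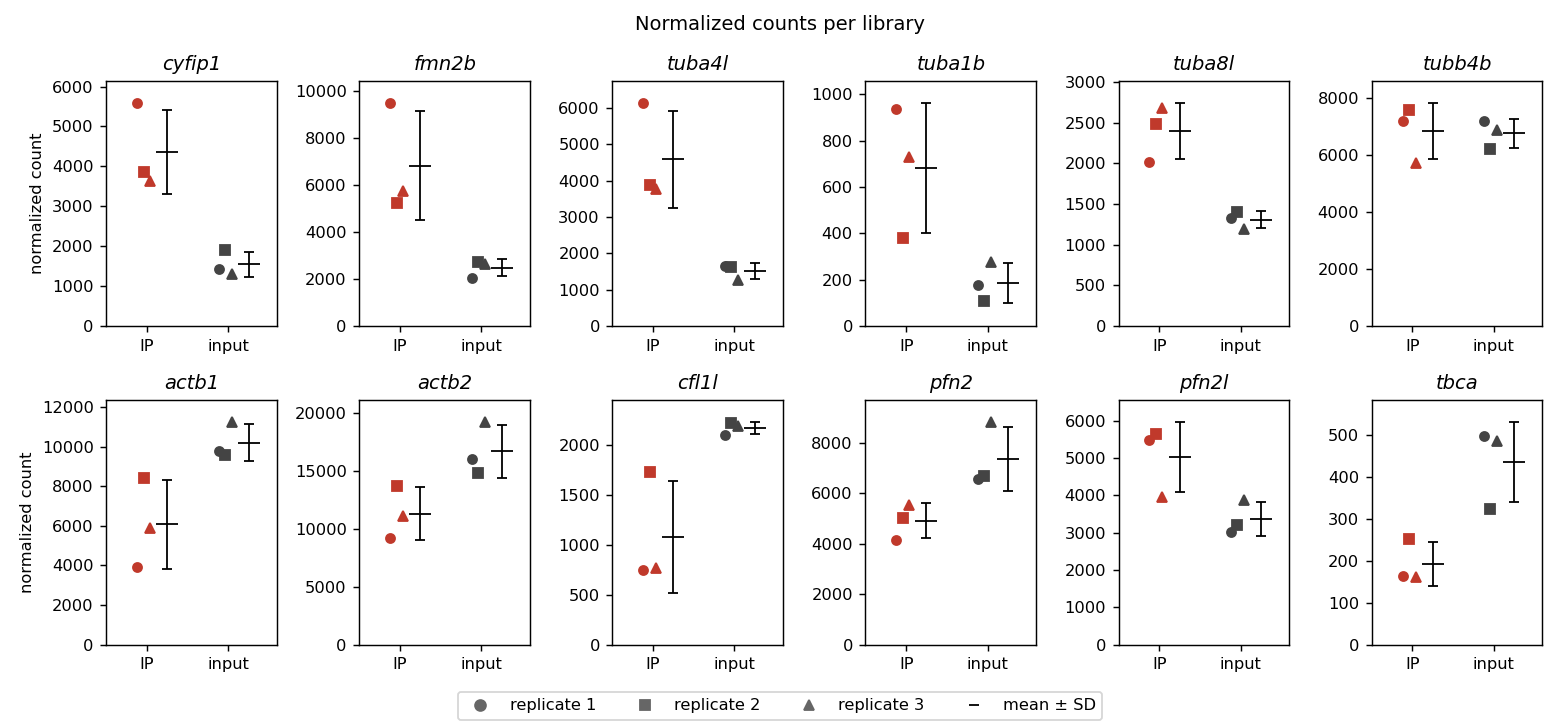
Normalized counts of 12 members in each Tdrd6a IP library (red) and each input library (grey), on linear axes that start at 0; symbols give the replicate number and bars the mean ± SD of 3 libraries. The called genes are cyfip1, fmn2b, tuba4l and tuba1b. The groups overlap for tubb4b alone, and those of the genes not called are otherwise apart as well. Over all genes tested, IP lay above input without overlap for 14.6% and below it for 12.9%.

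On the actin side, the cytoplasmic actin transcripts themselves were lower in all 3 IP libraries than in any input library without passing the test in limma, edgeR, DESeq2 or limma voom. The transcript of actb2 (ENSDARG00000037870) had 9172, 13746 and 11080 normalized counts in IP and 16021, 14842 and 19265 in input. Its estimate was -0.57 ± 0.28 (adjusted p = 0.282). That of actb1 (ENSDARG00000037746) had 3924, 8403 and 5897 in IP and 9789, 9588 and 11264 in input, at -0.81 ± 0.32 (adjusted p = 0.164). In both, IP replicate 1 was the lowest and IP replicate 2 lay nearest to input. Without IP replicate 2 the estimate of actb1 was -1.08 with an adjusted p of 0.0140, within a range of 0.0140 to 0.411 over the alternatives, while actb2 was called under none. The copies resemble each other closely, and reads may be split between them. Muscle actin was scarce: acta1a had 7.5 to 27.7 normalized counts in IP and 8.8 to 10.9 in input, and acta1b, acta2 and actc1b stayed below the minimum.

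As a share of the normalized counts of each library, the 3 actin members took 0.0839%, 0.146% and 0.145% in IP replicates 1, 2 and 3, against 0.220%, 0.207% and 0.226% in input. The 6 alpha tubulin members took 0.0913%, 0.0632% and 0.0959% in IP, against 0.0526%, 0.0396% and 0.0389% in input. The actin share was thus smaller and the alpha tubulin share larger in each IP library than in any input library.

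The subunits of the WAVE complex, the Rac-driven activator of Arp2/3, did not move together. Of 11 WASP and WAVE members, 1 was higher, 0 lower and 10 not called, against 4.46% higher and 1.86% lower over all genes. Their median was -0.42, and they include the N-WASP genes wasla and waslb, which are not WAVE subunits. The transcript of cyfip1 (ENSDARG00000044345), a large WAVE subunit that in mammals also binds the cap-binding protein eIF4E, had 5581, 3865 and 3644 normalized counts in IP and 1431, 1902 and 1308 in input. All IP libraries exceeded all input libraries, at 4363 ± 1061 in IP against 1547 ± 314 in input (SD, n = 3 each). The log2 fold change was 1.49 ± 0.28 (SE; 2.80-fold, adjusted p = 0.0127, limma). Without input replicate 1 or 3 the adjusted p was 0.0846 and 0.0890; over 17 alternatives 15 kept the call, with adjusted p from 6.17e-05 to 0.0890.

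Its partner nckap1, with which the CYFIP subunit forms the core of the complex, had 1946, 1376 and 1408 normalized counts in IP and 991, 1220 and 910 in input. These groups did not overlap, with an estimate of 0.59 ± 0.27 (adjusted p = 0.232). The paralog cyfip2 was scarce and overlapped (0.55 ± 0.67).

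The activating subunit wasf2 (WAVE2) had 2594, 3700 and 1852 normalized counts in IP and 3679, 4154 and 3374 in input. The groups overlapped through IP replicate 2 (-0.51 ± 0.30, adjusted p = 0.368). The Abi adaptor genes abi1b, abi2a and abi2b had estimates of -0.28, -0.44 and -0.42, and wasf3 was at -0.81 (adjusted p = 0.205) with IP below input in all libraries. The scarce abi1a had 21.5, 0 and 10.9 in IP and 42.6, 2.9 and 51.1 in input, an overlap that left it at -1.18 ± 0.99.

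The smallest WAVE subunit, brk1, is in the deposited table under a clone name, so it was no member by its symbol; it was found through its gene identifier, ENSDARG00000041974, after the data were seen. It had 101, 158 and 180 normalized counts in IP, against 489, 498 and 964 in input. All IP libraries were below all input libraries, at -2.09 ± 0.37 (adjusted p = 0.0101, limma), so within the WAVE complex cyfip1 was higher and brk1 lower in IP. The call of brk1 was lost without input replicate 3 (adjusted p = 0.0636), and its adjusted p ran from 8.221e-06 to 0.0636 over the alternatives.

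N-WASP, the Cdc42-driven activator, is encoded by wasla and waslb. The estimate of wasla was -0.55 (adjusted p = 0.441). For waslb the IP libraries disagreed, with 2130, 590 and 2888 normalized counts against 1420, 1242 and 1454 in input. Replicates 1 and 3 of IP lay above and IP replicate 2 below all input libraries, which gave 0.17 ± 0.52 (adjusted p = 0.897). Single libraries decided its direction. Without IP replicate 2 the estimate was 0.86 (adjusted p = 0.0340), whereas it was -0.07 without IP replicate 1, -0.29 without IP replicate 3 and -0.02 with library size only, and adjusted p ranged from 0.0340 to 0.991 over the alternatives.

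Estimates of the Arp2/3 complex itself lay on both sides of 0, from -0.82 to 0.80. The median was -0.10, with 4 estimates above 0 and 8 below. Of those above 0, actr3b reached the minimum only through IP (mean 14.2, against 7.23 in input). IP lay above input without overlap for 2 members and below it for 1, against 14.6% and 12.9% of all genes. Of 12 members limma called 0, against 6.32% of all genes, and 2 had an unadjusted p under 0.05, against 21.2%. The other tools run, edgeR, DESeq2 and limma voom, called 0 as well. The lack of calls does not show that IP and input were alike. The member with the highest counts, actr2a, had 1243, 1143 and 1362 normalized counts in IP and 1109, 1582 and 1938 in input, which overlapped (-0.27, 95% interval -0.88 to 0.34). The largest positive estimate was that of arpc5la (0.80 ± 0.30, adjusted p = 0.156), with 454, 820 and 629 in IP and 317, 344 and 402 in input. Its groups did not overlap, and neither did those of arpc1a, with 231, 361 and 263 in IP and 597, 430 and 425 in input (-0.76 ± 0.31, adjusted p = 0.183). The genes that share the symbol arpc4l had estimates of different sign, 0.31 for ENSDARG00000058225 and -0.82 for ENSDARG00000054063. The actr3 gene, which carried no symbol and was found after the data were seen, was at 0.33 (adjusted p = 0.760).

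Formins had a median of 0.50, with 9 of 10 estimates above 0, against 6577 of all 13265 genes tested. With library size only, 6 of 10 were above 0. Of the 10 formins 1 was called, against 6.32% of all genes. One formin above 0, fmn1, reached the minimum only through IP (mean 14.5, against 7.07 in input). Among the 5 formins with a mean of at least 50 the median was 0.02. The transcript of fmn2b (ENSDARG00000061778), a copy of the formin that in mouse oocytes builds the actin mesh that positions the spindle, had 9462, 5245 and 5742 normalized counts in IP and 2059, 2721 and 2655 in input. All IP libraries exceeded all input libraries, with IP replicate 1 the highest and means of 6816 ± 2305 in IP and 2478 ± 365 in input (SD, n = 3 each). The log2 fold change was 1.42 ± 0.30 (SE; 2.67-fold, adjusted p = 0.0199, limma). The call was lost when any 1 input library was left out, with adjusted p of 0.0835 to 0.121, and over 17 alternatives it ran from 0.000222 to 0.121.

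The copies of daam1, a formin of Wnt planar polarity signalling, had estimates of different sign, and neither was called. The transcript of daam1a had 561, 177 and 770 normalized counts in IP and 851, 1317 and 1009 in input. Its groups did not overlap, at -1.29 ± 0.49 (adjusted p = 0.162), and the size rested on IP replicate 2, without which it was -0.66. That of daam1b had 76.4, 63.9 and 246 in IP and 11.2, 27.9 and 167 in input. Each IP library was above the input library of its number, but the groups overlapped, at 1.35 ± 0.88 (adjusted p = 0.429). The ratio of daam1b to daam1a within a library also overlapped between IP and input (two-sided exact permutation p = 0.2). It was higher in IP in all 3 pairs of the same replicate number. The diaphanous genes diaph3 were near 0, at 0.00 and 0.02, and the other 5 formins, all with means under 50, were at 0.06 to 0.89.

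Among the monomer and end-binding proteins, 0 of 9 members were called, 2 had an unadjusted p under 0.05 and the median was -0.13. On recovered reads edgeR without the replicate block called 0, while edgeR with it, DESeq2 and limma voom called cfl1l lower. The cofilin-like gene cfl1l had 745, 1730 and 767 normalized counts in IP and 2106, 2219 and 2197 in input. Every IP library was below the narrow range of input, with IP replicate 2 nearest to it (-1.12 ± 0.34, adjusted p = 0.0751). With replicate number as a block the adjusted p was 0.0376, without IP replicate 2 it was 0.000972, and over the alternatives it ran from 0.000972 to 0.217. The cofilin gene cfl1 was at -0.13, with a 95% interval of -0.75 to 0.48.

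Profilin copies stood on either side of 0. The transcript of pfn2 had 4164, 5023 and 5538 normalized counts in IP and 6578, 6686 and 8838 in input, at -0.58 ± 0.27 (adjusted p = 0.243). That of pfn2l had 5497, 5655 and 3955 in IP and 3012, 3209 and 3884 in input, at 0.57 ± 0.27 (adjusted p = 0.253). In neither did the groups overlap, although IP replicate 3 and input replicate 3 of pfn2l nearly met. The scarcer pfn1 had 41.7, 67.7 and 83.2 in IP and 161, 131 and 125 in input, likewise without overlap (-1.11 ± 0.42, adjusted p = 0.152). The capping protein genes capza1a, capza1b and capzb were at -0.35, -0.13 and -0.07, with overlapping groups.

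The 5 other actin-related proteins are not parts of actin filaments. The genes actr1 and actr10 encode dynactin subunits, and actr5, actr6 and actr8 encode subunits of chromatin remodelling complexes. Of these, 0 were called and 0 had an unadjusted p under 0.05, and edgeR, DESeq2 and limma voom also called 0. The transcript of actr1 had 903, 1184 and 1270 normalized counts in IP and 1209, 1003 and 1327 in input, which overlapped (-0.08, 95% interval -0.66 to 0.50).

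**Figure D3:**
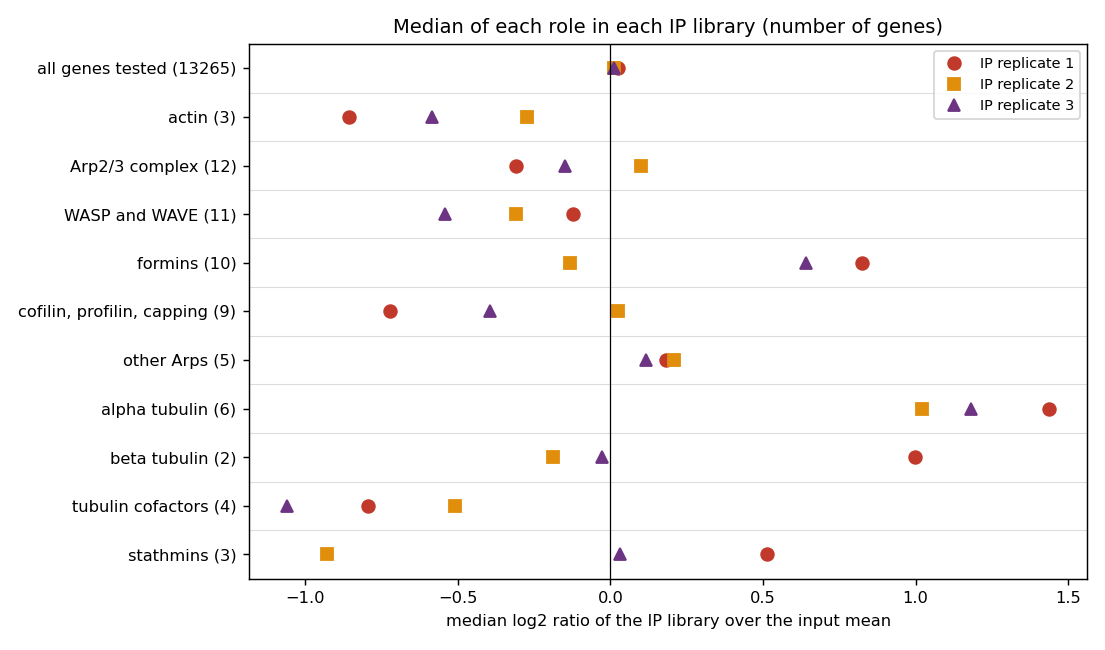
Median over the genes of each role of the log2 ratio of each Tdrd6a IP library over the input mean, with the number of genes in brackets. The 3 IP libraries all lie above 0 for alpha tubulin (1.02 to 1.44) and lie closer together for other actin-related proteins (0.12 to 0.21) and all genes. For formins and stathmins IP replicate 2 lies below 0 and the others above, and for beta tubulin only IP replicate 1 lies above.

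The medians of some roles differed among the IP libraries. The median of formins over the input mean was 0.83, -0.13 and 0.64 in IP replicates 1, 2 and 3, and that of stathmins was 0.51, -0.93 and 0.03. In IP replicate 2 the stathmin median was the value of stmn4, which had 11 reads there, while stmn2b had 0 reads. Of the 10 formins only 5 reached a mean of 50. The median of the actin genes proper was -0.86, -0.27 and -0.58, which in each library was the value of actb2. That of the tubulin cofactors was -0.79, -0.51 and -1.06. For alpha tubulin the values were 1.44, 1.02 and 1.18, and over all genes tested the medians were 0.02, 0.01 and 0.01. Beta tubulin, with 2 genes, gave 0.999, -0.19 and -0.03, and the other actin-related proteins 0.18, 0.21 and 0.12. IP replicate 2 had the fewest reads, and the part of depth in these differences was not tested.

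Ratios of related transcripts within a library were then compared, since they depend little on how libraries were scaled where counts are high. With 4 added to each count, ratios of scarce members still depend on the scaling, as for abi1a over abi1b, where abi1a had 0 in IP replicate 2. Of 18 pairs of members, chosen by name after the data were seen, 2 had ratios that did not overlap between the groups. Profilin pfn2l over pfn2 was 1.32, 1.13 and 0.714 in IP and 0.458, 0.480 and 0.440 in input, which differ by 2.22-fold on average. Alpha tubulin tuba8l over tuba4l was 0.330, 0.644 and 0.710 in IP and 0.803, 0.873 and 0.940 in input. Both had a two-sided exact permutation p of 0.1, the smallest that 3 libraries against 3 allow, and of 0.54 adjusted over the 18 pairs. Cofilin cfl1l over cfl1 was 0.321, 0.941 and 0.285 in IP and 0.774, 1.16 and 0.747 in input, where IP replicate 2 fell inside the input range (exact permutation p = 0.3). Actin actb1 over actb2 was 0.428, 0.611 and 0.532 in IP and 0.611, 0.646 and 0.585 in input and also overlapped (exact permutation p = 0.3). Within libraries of the same replicate number, however, both ratios were lower in IP in all 3 pairs. Of the 18 ratios 11 kept to one side in every pair, 5 higher and 6 lower in IP. The smallest two-sided exact permutation p that 3 pairs allow is 0.25. With no difference, a share of 0.25 of ratios would keep to one side, and 0.1 would not overlap between the groups. Some ratios share a gene, so they are not independent, and these counts were not tested.

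**Figure D4:**
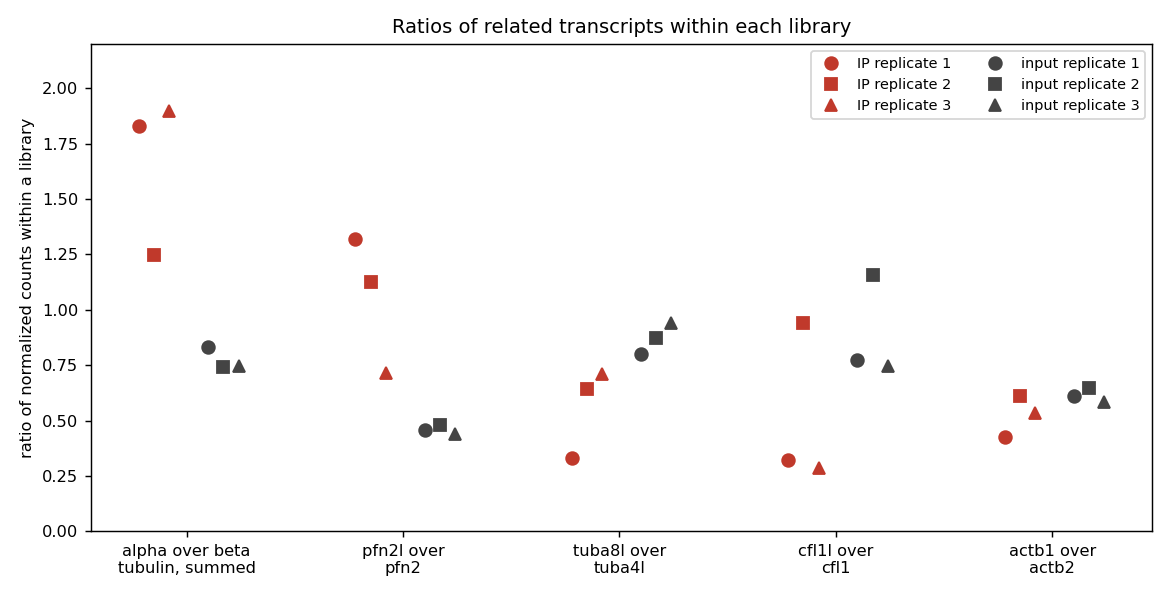
Ratios of normalized counts within each library, with Tdrd6a IP libraries in red left of input libraries in grey; 4 was added to each count in the ratios of 2 genes, and the first column divides summed alpha by summed beta tubulin. The IP and input libraries separate for alpha over beta tubulin, pfn2l over pfn2 and tuba8l over tuba4l, and overlap for cfl1l over cfl1 and actb1 over actb2.

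Other genes of the same pathways, taken from 9 lists by symbol, were called at a similar rate. Of 136 tested, 5 were higher, 3 lower and 128 not called, or 5.88% called, against 6.32% of all genes. Their median log2 fold change was 0.07. With replicate number as a block 9 of the 136 were higher. On the actin side were 32 genes of filament turnover and end binding, with a median of 0.00. Of these, 3 were higher and 0 lower, against 4.46% and 1.86% of all genes. Among them tmod2, a tropomodulin that caps pointed ends, had 2056, 1064 and 1318 normalized counts in IP and 262, 167 and 172 in input, far apart (2.84 ± 0.33, adjusted p = 0.00106). The cofilin phosphatase gene ssh2a (1.45 ± 0.28, adjusted p = 0.0141) and the twinfilin gene twf1a (1.92 ± 0.38, adjusted p = 0.0152) were also higher.

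Of 10 tropomyosins and cortex linkers 1 was higher and 1 lower, against 4.46% and 1.86% of all genes, with a median of -0.77. The transcript of anln, the furrow scaffold anillin, had 39947, 30131 and 15916 normalized counts in IP and 6166, 5933 and 6672 in input. The smallest IP value was still above every input value (2.10 ± 0.35, adjusted p = 0.00734). The tropomyosin gene tpm1 was lower, with 387, 459 and 378 in IP and 1626, 1133 and 1289 in input (-1.71 ± 0.27, adjusted p = 0.00487). Limma called 0 of 8 actin crosslinkers (median 0.38), with 1 at an unadjusted p under 0.05. In this list edgeR and limma voom called 0 and DESeq2 1 higher.

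On the microtubule side, a list of 7 genes held the gamma tubulin complex and tubd1, with a median of 0.19. Of these, 1 was higher, tubgcp3 (1.19 ± 0.29, adjusted p = 0.0338), and 1 lower, mzt2b (-1.61 ± 0.41, adjusted p = 0.0430). Over all genes 4.46% were higher and 1.86% lower. Limma called 0 of 21 lattice and plus end proteins, whose median was -0.64 with 13 of 21 estimates below 0. Of these 21, 7 were lower at an unadjusted p under 0.05, against 1194 of all 13265 genes tested. IP lay below input without overlap for 8 of them and above it for 2, against 12.9% and 14.6% of all genes. Limma also called 0 of 18 tubulin modifying and severing enzymes (median 0.13, 2 at an unadjusted p under 0.05). Of 6 septins it called 0 (median 0.19, 1 at an unadjusted p under 0.05). In these 3 lists edgeR called 0, limma voom 1 lattice or plus end gene lower, and DESeq2 2 of those lower and 1 septin higher. A list of 15 genes held the chaperonin and prefoldin, which fold actin and tubulin, and arl2. Of these, 1 was lower, pfdn1, against 1.86% of all genes, and the median was 0.18. The transcript of pfdn1 had 281, 335 and 263 normalized counts in IP and 926, 987 and 1208 in input (-1.81 ± 0.27, adjusted p = 0.00385). The calls of tmod2, tpm1 and pfdn1 held under all 17 alternatives. Those of anln and ssh2a were lost when any 1 input library was left out (adjusted p up to 0.0657 and 0.0991), and those of twf1a, tubgcp3 and mzt2b without any 1 input library or IP replicate 1 (up to 0.0840, 0.143 and 0.163), mzt2b also without IP replicate 3. The call of tubgcp3 was lost with library size only (adjusted p = 0.0551) and with no filter beyond 1 read (0.0710), and that of mzt2b with no such filter (0.0749) and with limma voom (0.0543).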

How the data were processed

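Input and Tdrd6a IP RNA of zygotes was sequenced as 50 bp single-end reads after NuGEN Ovation V2 library preparation, per the labels' protocols. TopHat, DESeq and the Zv9 build are named in the submitters' processing notes. How reads were counted, on which annotation and with or without strand is not given in the sources used here, so a gene and its antisense partner may share reads. The authors deposited a read-count signal, normalized counts to 1 decimal. Low values are whole multiples of the value of 1 read (0.682 to 3.76 normalized counts); at least 99.97% of values above 0 lay within 0.06 of a multiple, and reads were recovered from it for the alternatives. The labels name no molecular identifiers, so reads are not independent molecules.

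The test was limma 3.58.1 (trend, robust; R 4.3.3) on log2(normalized count + 4), group as the only term, two-sided, over the 13265 genes with a mean of at least 10, with Benjamini-Hochberg adjustment over all of them. Fold changes are on that scale, which understates changes of low genes. Intervals are at 95%. Calls were made at an adjusted p under 0.05. Members, roles, lists and tests were chosen with earlier results of these data known. Values per library are given for called members, the 3 highest and 3 lowest estimates of each side, the member with the highest mean of each role, and members at least 2-fold apart without overlap; further members were chosen after their values were seen. Of 65 members, 59 had a current symbol by gene identifier. The same pattern on current symbols added 5 tested genes; tbcc, brk1 and actr3 are described, and the other two were not called. The pathway totals include 1 list that is not reported here.

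Deviations from the group means were correlated between IP and input libraries with the same number (0.294, 0.305 and 0.301 for replicates 1, 2 and 3). The numbers were therefore taken to pair the libraries in the replicate block and in the ratios compared within pairs. The fit reported left this pairing out, so its calls, with 0 members lower, are those of an unpaired comparison. Within-group libraries differed beyond sampling noise, and all 6 were counted. The limma fit was also run on simulated reads that had the same spread for every gene and no replicate effect. That run therefore does not show how the fit fares on paired libraries such as these. Alternatives were a replicate block, 2 scalings, 2 pseudocounts, 2 filters, edgeR 4.0.16 (with and without the block), DESeq2 1.42.0 and limma voom on recovered reads, and leaving out each library. Python 3.11.15 was used for the ratios and figures.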

Additional observations from a re-analysis of the deposited data

How the results depend on the processing

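No member or other named gene that was called in the fit reported changed direction in the 17 alternatives. Among genes called under an alternative only, waslb changed sign, at 0.86 without IP replicate 2, where it was called, and -0.29 without IP replicate 3. Signs differed from the fit reported only where a gene was called in neither, for 0 to 9 of up to 78 genes per alternative. The replicate block raised the counts to 925 higher and 467 lower genes in all, with 9 pathway genes higher; it added 1 lower actin member (cfl1l) and 1 lower tubulin member (tbca) and changed no other named call. Library size only gave 1 lower actin member, 1 lower tubulin member and 383 lower genes. The edgeR fit with the block gave 1 and 2 lower members and 399 lower genes, and without it edgeR called 578 higher and 246 lower genes on recovered reads. DESeq2 gave 1 and 2 lower members, 14 higher and 6 lower pathway genes, and 1061 higher and 571 lower genes. Limma voom gave 1 lower member on each side. With no filter beyond 1 read, 1 tubulin member was higher and 101 genes lower; with a mean of at least 50, 8 pathway genes were higher. Leaving out a library gave 0 to 3 actin members higher and 0 to 2 lower, 0 to 4 tubulin members higher and 0 to 1 lower, 1 to 17 pathway genes higher and 2 to 7 lower, and 170 to 1185 genes higher and 10 to 547 lower. Over all genes the highest counts came without IP replicate 2, the shallowest library, and the lowest without an input library; the cause was not tested. The scarce members abi1a, fmnl3 and stmn2b, each with 0 reads in at least 1 library, had wide intervals, and the parts of depth and of spread between libraries in them were not tested.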
